A study of Mus musculus with 14 samples.

Results

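The 10 genes described here act in heme breakdown, iron storage and transport, metal binding and the clearance of free hemoglobin and heme. They were taken by symbol (Hmox1, Fth1, Ftl1, Tfrc, Slc40a1, Slc11a2, Mt1, Mt2, Hp and Hpx), and all 10 were found among the 24411 genes counted in 14 mouse kidney libraries. RNA from kidney was sequenced to follow acute kidney injury after renal ischemia/reperfusion injury (IRI), in which blood flow to the kidney is stopped and then restored. The animals were male C57/B6 mice of 8 weeks with no allele or drug named in the labels, and the groups were day 0 (4 libraries), day 1 (5 libraries) and day 3 (5 libraries). The sources used here do not say whether the day 0 mice of this experiment had sham surgery. They also do not say that each library came from a separate mouse, so p-values measure the spread between these libraries, which may be technical. The libraries of days 1 and 3 carry a number of 1 digit or of 3 digits in their deposited names, and the meaning of the number is not given. Day 0 has 1-digit libraries only, day 1 has 3 libraries of the 1-digit and 2 of the 3-digit format, and day 3 has 2 and 3, respectively.

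Heme oxygenase-1 (Hmox1) opens the ring of heme and releases its iron, which cells store inside a shell built from ferritin heavy and light chains (Fth1, Ftl1). Transferrin receptor (Tfrc) and the divalent metal transporter (Slc11a2) bring iron into the cell, and ferroportin (Slc40a1) lets it out. Iron regulatory proteins bind a short RNA hairpin, the iron-responsive element, and so tie the use of these mRNAs to the iron supply. Metallothioneins (Mt1, Mt2) bind zinc and copper, while haptoglobin (Hp) and hemopexin (Hpx) are plasma proteins that capture free hemoglobin and free heme. Tubule cells of the kidney take up iron and heme proteins from the filtrate.

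The iron-responsive elements of these genes are shown because 4 of the 10 carry the hairpin letters in an untranslated region, and these genes are described together with the iron transporters. Each element was found in GENCODE M21 transcripts (GRCm38) as a run of 27 bases with a bulged C, 5 paired bases in the upper stem, at least 3 paired bases in the lower stem and a loop of the letters CAGTGN, which is in capitals. Fth1 has 1 element in its 5′ UTR at chr19:9982733-9982759 (plus strand), Ftl1 has 1 in its 5′ UTR at chr7:45459780-45459806 (minus strand), and Slc40a1 has 1 in its 5′ UTR at chr1:45925466-45925492 (minus strand). Tfrc has 4 in its 3′ UTR on the plus strand, at chr16:32631220-32631246, chr16:32631599-32631625, chr16:32631664-32631690 and chr16:32631711-32631737. In the order given, they read 5′ to 3′:
Fth1: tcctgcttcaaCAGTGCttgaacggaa
Ftl1: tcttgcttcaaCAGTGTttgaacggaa
Slc40a1: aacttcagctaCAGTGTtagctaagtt
Tfrc element 1: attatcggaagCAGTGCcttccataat
Tfrc element 2: attatcgggagCAGTGTcttccataat
Tfrc element 3: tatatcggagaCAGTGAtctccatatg
Tfrc element 4: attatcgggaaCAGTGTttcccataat
Among 21877 protein-coding genes searched the same way, 10 (0.0457%) held a match in a 5′ UTR and 36 (0.165%) held one in a 3′ UTR. The other 6 genes, Slc11a2 among them, held no run of these letters. The search requires 5 unbroken pairs in the upper stem, so it would miss a hairpin with an unpaired base there. It therefore does not show that these genes lack an iron-responsive element.

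Mt2 and Mt1 lie on the plus strand of chromosome 8, and 5513 bases separate the end of Mt2 from the start of Mt1. The 250 bases before each RefSeq start are shown (GRCm38.p6) because the levels of the pair are compared with each other. Capitals mark every match, on either strand, to TGCNCNC, the core of the metal response element that the zinc-sensing factor Mtf1 is known to bind.
Mt2, chr8:94172368-94172617: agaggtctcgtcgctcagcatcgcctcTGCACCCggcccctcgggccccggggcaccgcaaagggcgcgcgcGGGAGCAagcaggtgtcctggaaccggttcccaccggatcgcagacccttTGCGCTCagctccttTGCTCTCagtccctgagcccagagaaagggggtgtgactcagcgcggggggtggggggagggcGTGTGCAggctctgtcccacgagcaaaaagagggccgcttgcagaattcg
Mt1, chr8:94178839-94179088: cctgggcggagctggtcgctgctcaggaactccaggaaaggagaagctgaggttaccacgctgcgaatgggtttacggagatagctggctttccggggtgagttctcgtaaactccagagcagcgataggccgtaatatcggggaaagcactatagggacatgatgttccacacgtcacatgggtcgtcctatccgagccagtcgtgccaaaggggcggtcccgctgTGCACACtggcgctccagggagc
The Mt2 window held 5 matches, which begin 223, 178, 128, 113 and 50 bases before the start, and the Mt1 window held 1, which begins 23 bases before it. At least 1 match stood in 44.4% of 32851 windows of this length, and 5 or more stood in 0.344%. A second Mt1 transcript starts 129 bases downstream of the first, and its own upstream window was not examined, so the count for Mt1 covers only the window shown and is not a count for the gene. The Mt2 window also held 1 match to TGACNNNGC, the core of the antioxidant response element, 79 bases before the start, as did 10.2% of windows. Neither window held TTCNNNGAA, a STAT factor site that stood in 7.02% of windows, and the Mt1 window held 1 match to ACGTG, the core of the hypoxia response element, which stood in 16.6% of windows. These matches describe letters only. Promoter windows were matched for 6 of the 10 genes.

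Reads assigned to genes ranged from 12485579 to 20476979 per library, and levels are given as CPM, the counts scaled to a common library total, after TMM scaling, which adjusts each library for its composition. Kap and Slc34a1, proximal tubule genes, stood at 26767 to 31145 CPM and 4306 to 5387 CPM at day 0, so the labelled tissue was present in its markers. The summed level of 10 proximal tubule markers was 53500 to 55300 CPM at day 0, 22900 to 61500 at day 1 and 11400 to 25100 at day 3, with 1 of 10 genes lower at day 1 and 6 of 10 at day 3. The 7 thick limb and distal tubule markers summed to 7120 to 9840, 3440 to 6070 and 2240 to 3470 CPM, with 4 and 6 of 7 lower, and the 7 collecting duct markers to 869 to 1160, 561 to 861 and 349 to 787 CPM, with 2 and 3 of 7 lower. The 7 neutrophil markers summed to 1.39 to 2.07 CPM at day 0, 50.8 to 221 at day 1 and 19.7 to 485 at day 3, and all 7 were higher on both days. The 10 macrophage markers summed to 117 to 172, 142 to 345 and 164 to 226 CPM, with 3 higher and 1 lower at day 1 and 4 higher and 1 lower at day 3. They moved in opposite ways, as Cd14 was 3.63 to 6.06 CPM at day 0 and 54.3 to 220 at day 1, and Csf1r was 84.0 to 98.0 and 24.2 to 33.5. All 6 hemoglobin genes on the red blood cell list were listed at 0 in every library, although Alas2, a red cell precursor gene, reached 0.34 to 26.5 CPM. Slc4a1, which red cells and collecting duct cells both make, was 47.8 to 64.2 CPM at day 0 and 0.92 to 12.0 afterward, and the list's sum was 55.8 to 76.9, 10.8 to 37.5 and 8.75 to 20.6 CPM, with 1 of 2 tested genes lower on both days. The part of these cell types in the changes below was not tested beyond the values given. In whole kidney, fewer cells of a type and less RNA per cell cannot be told apart, which holds for every level given here.

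After IRI, heme oxygenase and both metallothioneins were above their day 0 levels on both days. The mean rise was 3.76-fold for heme oxygenase at day 3 and 13.6-fold or more in the other cases. Ferritin light chain was higher at day 1, and the iron importers Slc11a2 and Tfrc were lower at day 1 and at day 3, respectively. Of the 10 genes, 9 passed the filter on low counts and were tested, and Hpx did not. At day 1, 5 of the 9 rose (Hmox1, Ftl1, Mt1, Mt2 and Hp) and 1 fell (Slc11a2), where 42.1% of all 14300 genes tested were called in either direction (23.3% higher and 18.7% lower; edgeR quasi-likelihood test, adjusted p under 0.05). At day 3, 3 rose (Hmox1, Mt1 and Mt2) and 1 fell (Tfrc), where 33.3% of all genes were called (19.5% higher and 13.8% lower). Between days 1 and 3, Hmox1 fell and the other 8 did not pass, where 15.9% of all genes were called (8.52% higher and 7.39% lower). Within the 3-digit libraries, Fth1 (-1.25, adjusted p = 0.0109), Ftl1 (-0.85, adjusted p = 0.0229) and Tfrc (-1.09, adjusted p = 0.0139) also fell from day 1 to day 3, against -0.29, -0.39 and -0.52 with all libraries. Hmox1 was also the 1 gene whose day 3 range lay wholly below day 1, as did 3.47% of all genes, while 4.14% lay wholly above. The median log2 fold change of the 9 was 0.86 at day 1 and 0.49 at day 3, where the medians over all genes were 0.01 and 0.05. The CPM of 5 genes at day 1 and of 4 at day 3 did not overlap those of day 0, where 21.5% and 16.9% of all genes lay wholly above day 0 and 20.5% and 16.5% wholly below it. Both comparisons share the day 0 libraries. Without day 0 replicate 4 and day 1 replicate 2, which carried the fat cell genes Adipoq and Cfd, 7 genes passed at day 1, where 38.6% of all genes did, and 5 at day 3, where 28.0% did, a setting chosen after seeing the data.

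**Figure D1:**
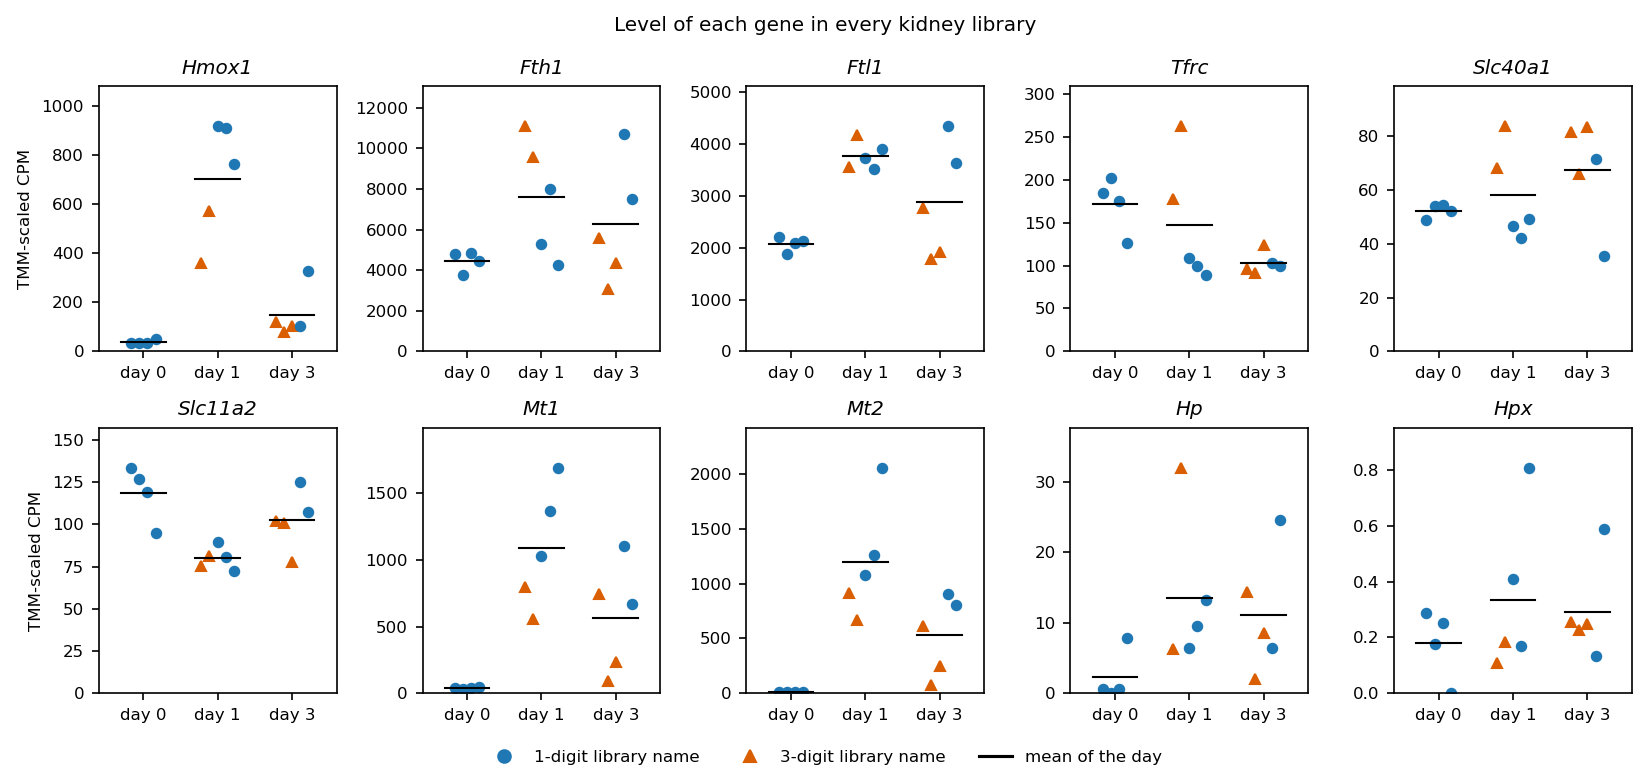
TMM-scaled CPM of each of the 10 genes (vertical axes, linear from 0) in every library of day 0, day 1 and day 3, with 1-digit libraries as circles, 3-digit libraries as triangles and a line at the mean of each day. Hmox1, Mt1 and Mt2 lie above day 0 in all 10 libraries of days 1 and 3, while Hpx stays under 1 CPM throughout.

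**Figure D2:**
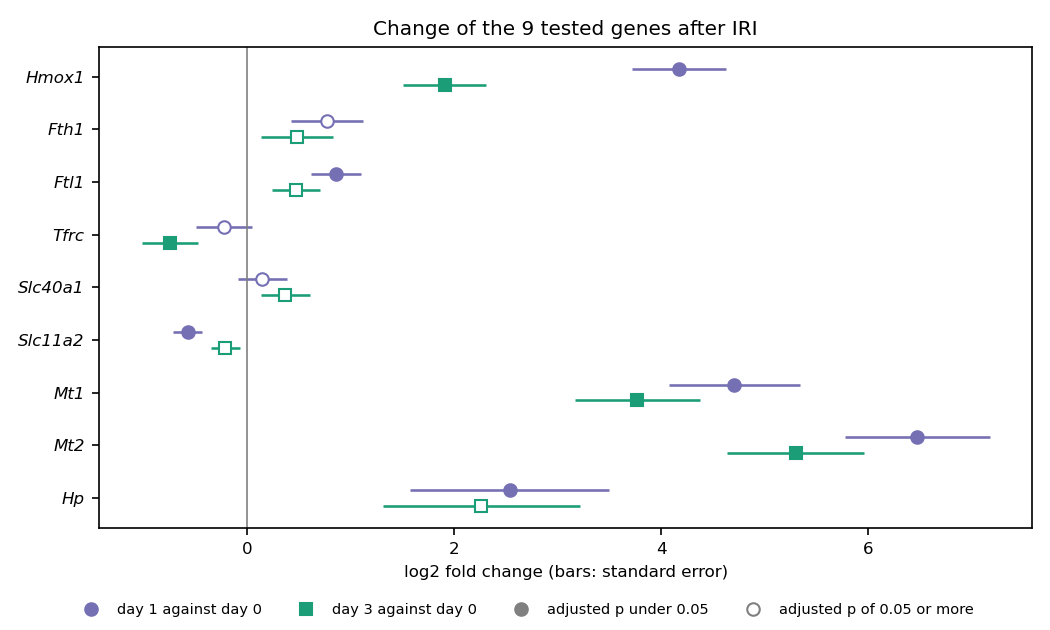
Log2 fold change against day 0 (horizontal axis) of the 9 tested genes at day 1 (circles) and day 3 (squares), with bars of 1 standard error and filled symbols for an adjusted p under 0.05. Mt2 has the largest change on both days, 6.47 and 5.30, and Tfrc and Slc11a2 lie to the left of 0 on both.

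Hmox1 (ENSMUSG00000005413.8) lies at chr8:75093621-75100589 on the plus strand. At day 0 it stood at 36.0, 33.8, 34.2 and 52.0 CPM. At day 1 it stood at 358, 571, 915, 907 and 763 CPM, and at day 3 at 118, 77.8, 105, 105 and 326 CPM. The 3 days did not overlap, and day 3 lay between the others. The mean was 39.0 ± 8.72 CPM (SD, n = 4) at day 0, 703 ± 238 (n = 5) at day 1, which is 18.0 times day 0, and 147 ± 102 (n = 5) at day 3, which is 3.76 times day 0. The log2 fold change was 4.17 ± 0.45 (SE) at day 1 (adjusted p = 2.48e-05) and 1.91 ± 0.40 at day 3 (adjusted p = 0.00311), and from day 1 to day 3 it was -2.26 ± 0.38 (adjusted p = 0.00306; edgeR quasi-likelihood test, Benjamini-Hochberg). The highest day 3 library, replicate 5, also had the highest neutrophil sum of all libraries, 485 CPM against 19.7 to 138 in the other day 3 libraries. Without it, the log2 fold change at day 3 was 1.39, which still passed. The day 0 library with the highest Hmox1, replicate 4, was also the one with the highest Mt1, Mt2 and Hp of its day. The part of neutrophils or of fat in these levels was not tested.

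Mt1 (ENSMUSG00000031765.8) lies at chr8:94179082-94180327. It stood at 42.5, 36.0, 38 and 50.1 CPM at day 0. It stood at 798, 557, 1026, 1363 and 1683 CPM at day 1 and at 741, 89.7, 234, 1104 and 670 CPM at day 3. All 10 injured libraries were above day 0, and days 1 and 3 overlapped. The mean rose 26.1-fold at day 1 and 13.6-fold at day 3. The log2 fold change was 4.70 ± 0.63 at day 1 (adjusted p = 0.000116) and 3.77 ± 0.60 at day 3 (adjusted p = 0.000546).

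Mt2 (ENSMUSG00000031762.7) lies at chr8:94172664-94173568 and overlaps the opposite-strand gene Gm45774. It stood at 12.7, 12.9, 10.7 and 17.4 CPM at day 0. It stood at 913, 667, 1082, 1261 and 2047 CPM at day 1 and at 616, 72.2, 247, 902 and 805 CPM at day 3. The lowest injured library, day 3 replicate 2, was above the highest at day 0. The mean rose 88.9-fold at day 1 and 39.3-fold at day 3, the largest change among the 10 genes on both days. The log2 fold change was 6.47 ± 0.70 at day 1 (adjusted p = 2.48e-05) and 5.30 ± 0.66 at day 3 (adjusted p = 0.000105). From day 1 to day 3 the difference was -1.18 ± 0.50 for Mt2 (adjusted p = 0.122) and -0.94 ± 0.50 for Mt1 (adjusted p = 0.208), so neither passed. For Mt2 this difference did pass within the 1-digit libraries (-0.79, adjusted p = 0.0431).

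The share of Mt2 in the pair also moved. Per kilobase of the main transcript, the ratio of Mt2 to Mt1 was 0.320, 0.386, 0.303 and 0.373 at day 0. At day 1 it was 1.23, 1.29, 1.13, 0.994 and 1.31, and at day 3 it was 0.893, 0.865, 1.13, 0.878 and 1.29. Every injured library was above every day 0 library, so Mt1 exceeded Mt2 at day 0 and the pair stood near equality after injury. The mean ratio was 0.346 ± 0.0402 (SD, n = 4), 1.19 ± 0.130 (n = 5) and 1.01 ± 0.190 (n = 5). The ratio rests on 170 to 288 Mt2 reads per library at day 0 and on 1282 to 25447 afterward.

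**Figure D3:**
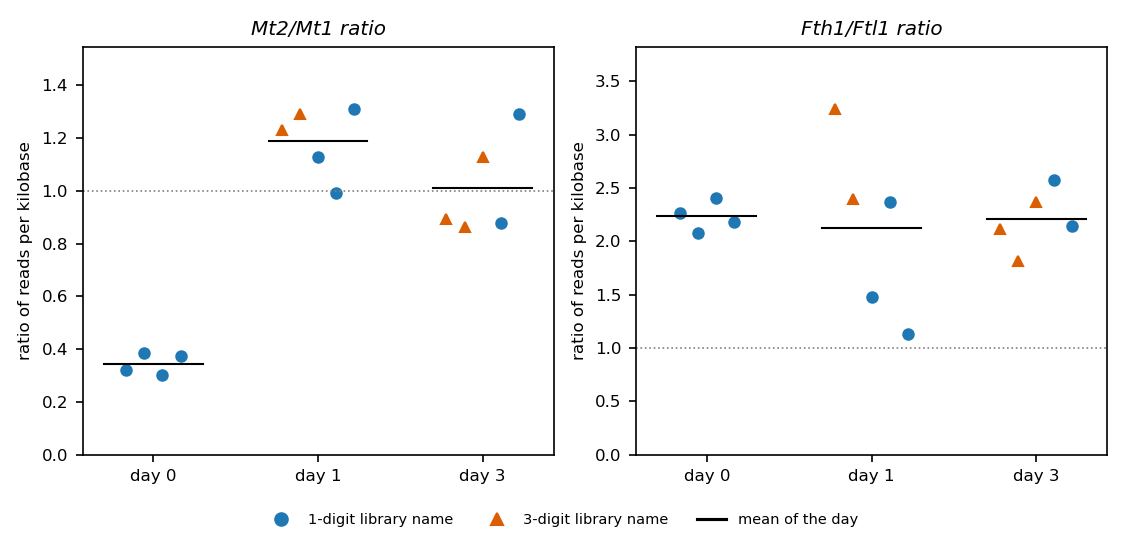
Ratio of reads per kilobase (vertical axes, linear from 0) of Mt2 to Mt1 (left) and of Fth1 to Ftl1 (right) in every library, with 1-digit libraries as circles, 3-digit libraries as triangles and a line at the mean of each day. The Mt2/Mt1 ratio is 0.303 to 0.386 at day 0 and 0.865 or more afterward, while the Fth1/Ftl1 ratio overlaps on all days and spreads most at day 1, from 1.13 to 3.24.

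Ftl1 (ENSMUSG00000050708.16) lies at chr7:45457944-45459884 on the minus strand, overlaps the small gene Gm22133 on its own strand and Gm10252 on the other, and carries the 5′ UTR element shown above. It stood at 2206, 1878, 2097 and 2126 CPM at day 0. It stood at 3561, 4165, 3720, 3516 and 3896 CPM at day 1 and at 2760, 1772, 1921, 4334 and 3639 CPM at day 3. Day 1 lay wholly above day 0, while day 3 had libraries on both sides of it. Its log2 fold change was 0.86 ± 0.24 at day 1 (adjusted p = 0.0107) and 0.47 ± 0.24 at day 3 (adjusted p = 0.134). At day 3 the change passed without replicate 2, at 0.61 (adjusted p = 0.0357), and with the number format as a term, at 0.67 (adjusted p = 0.0279).

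Fth1 (ENSMUSG00000024661.7) lies at chr19:9980598-9985098 on the plus strand. At day 0 it stood at 4807, 3745, 4855 and 4450 CPM. It stood at 11083, 9586, 5271, 7987 and 4234 CPM at day 1 and at 5613, 3098, 4378, 10728 and 7487 CPM at day 3. Both injured days held libraries inside the day 0 range and libraries at more than its highest value. The change on the log2 scale was 0.77 ± 0.35 at day 1 (adjusted p = 0.0866) and 0.49 ± 0.35 at day 3 (adjusted p = 0.289), and neither passed. At day 1 it passed with DESeq2 (adjusted p = 0.0486) and when only days 0 and 1 were fitted (adjusted p = 0.0368). The ratio of Fth1 to Ftl1 per kilobase was 2.08 to 2.41 at day 0, 1.13 to 3.24 at day 1 and 1.82 to 2.58 at day 3. Both ferritin genes have processed copies in the mouse genome, 2 named for Fth and 3 for Ftl, and reads that fit a copy as well were not counted, so the levels of both are uncertain to that extent.

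Tfrc (ENSMUSG00000022797.16) lies at chr16:32608920-32632794 on the plus strand and carries the 4 elements in its 3′ UTR. It stood at 185, 202, 175 and 126 CPM at day 0. It stood at 178, 262, 109, 99.4 and 89.4 CPM at day 1 and at 95.7, 91.2, 124, 103 and 99.3 CPM at day 3. Day 1 spanned day 0 on both sides, and all 5 day 3 libraries were below it, the highest by a narrow margin. On the log2 scale the change was -0.22 ± 0.27 at day 1 (adjusted p = 0.535) and -0.74 ± 0.27 at day 3 (adjusted p = 0.0484). The day 3 call was near the threshold and was lost when any of day 0 replicates 1, 2 and 3 or day 3 replicates 1, 2, 4 and 5 was left out, at log2 fold changes of -0.66 to -0.74 (adjusted p = 0.0738 to 0.123). It was also lost without TMM scaling (-0.60, adjusted p = 0.151). Without the 2 libraries with fat markers, Tfrc was also lower at day 1, by a log2 fold change of -0.66 (adjusted p = 0.0291).

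Slc11a2 (ENSMUSG00000023030.16) lies at chr15:100387898-100425072 on the minus strand and overlaps the opposite-strand gene Gm5475. It stood at 133, 127, 119 and 94.7 CPM at day 0. It stood at 75.4, 81.2, 89.4, 80.7 and 72.2 CPM at day 1 and at 102, 101, 77.5, 125 and 107 CPM at day 3. All 5 day 1 libraries were below day 0, and day 3 overlapped both. The log2 fold change was -0.57 ± 0.14 at day 1 (adjusted p = 0.00598) and -0.21 ± 0.14 at day 3 (adjusted p = 0.273), and the day 1 call held under every alternative run on that comparison, at -0.50 to -0.67. From day 1 to day 3 the difference was 0.36 ± 0.13 (adjusted p = 0.0783), which passed without day 3 replicate 3 (0.44, adjusted p = 0.0443), without TMM scaling (0.52, adjusted p = 0.0147), with a term for the number format (0.39, adjusted p = 0.0439) and within the 1-digit libraries (0.51, adjusted p = 0.0323).

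Slc40a1 (ENSMUSG00000025993.10), the only known iron exporter of animal cells, lies at chr1:45908068-45926523 on the minus strand. It stood at 48.8, 53.8, 54.2 and 52.1 CPM at day 0. It stood at 68.2, 83.5, 46.4, 42.2 and 49.2 CPM at day 1 and at 81.3, 65.8, 83.4, 71.3 and 35.6 CPM at day 3. Day 0 was tight, with an SD of 2.44 CPM around a mean of 52.2, and both injured days spread to either side of it. Its log2 fold change was 0.15 ± 0.24 at day 1 (adjusted p = 0.631) and 0.37 ± 0.24 at day 3 (adjusted p = 0.241). Without day 3 replicate 5, the lowest library, the day 3 value was 0.54 (adjusted p = 0.0488).

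Hp (ENSMUSG00000031722.10), an acute-phase protein made mainly by the liver, lies at chr8:109575128-109579172 on the minus strand. It stood at 0.69, 0.118, 0.569 and 7.92 CPM at day 0. It stood at 6.30, 31.9, 6.41, 9.54 and 13.2 CPM at day 1 and at 14.4, 2.03, 8.52, 6.39 and 24.6 CPM at day 3. Day 0 replicate 4 alone reached into the range of the injured days, and the other 3 libraries of day 0 lay below all of them. Adipoq, made by fat cells, was 7.98 CPM in that library and 2.45 CPM in day 1 replicate 2, the highest Hp library of its day, and it was 0.12 CPM or less in the other 12. Cfd, another fat cell gene, was 24.6 and 10.7 CPM in the same libraries and 0.57 CPM or less in the rest, and the summed level of the 7 fat markers was 57.8 to 178 CPM at day 0, 81.4 to 179 at day 1 and 44.0 to 241 at day 3, with none of the 3 tested called. The same 2 libraries had the highest levels of 5 uroplakins, genes of the urothelium that lines the renal pelvis: Upk3a was 11.1 and 10.8 CPM against 3.05 or less elsewhere, and Upk1b was 9.56 and 16.1 against 2.96 or less. The 7 urothelium markers summed to 57.6 CPM in day 0 replicate 4 against 4.35 to 11.8 in the rest of day 0, and to 365 to 1210 at day 1 and 54.2 to 883 at day 3, mostly as Krt20. Of these 7, 1 was called higher and 0 lower at day 1, and 1 higher and 1 lower at day 3. The 9 liver markers, some of which kidney also expresses, summed to 2120 to 2490 CPM at day 0, 389 to 3820 at day 1 and 545 to 1220 at day 3, and Cyp2e1 made up most of the day 0 sum. Of the 7 tested, 0 were called higher and 1 lower at day 1, and 1 higher and 3 lower at day 3. Alb was 3.45 to 6.32 CPM at day 0, 2.86 to 28.7 at day 1 and 1.73 to 15.4 at day 3. Fga was 19.6 to 28.8, 19.6 to 205 and 10.9 to 225 CPM. Ahsg was at most 0.07 CPM, while Apob was 163 CPM in day 0 replicate 4, 37.2 to 50.9 in the rest of day 0 and 3.95 or less afterward. The part of fat, urothelium or liver RNA in the Hp levels was not tested.

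The Hp log2 fold change was 2.54 ± 0.96 at day 1 (adjusted p = 0.0458) and 2.26 ± 0.95 at day 3 (adjusted p = 0.0799). Without day 0 replicate 4 it was 4.86 at day 1 (adjusted p = 0.00238) and 4.58 at day 3 (adjusted p = 0.00420), and without both libraries with fat markers it was 4.25 (adjusted p = 0.00249) and 4.58 (adjusted p = 0.00219). The day 1 call was lost when any of day 0 replicates 1, 2 and 3, day 1 replicates 2, 4 and 5 or day 3 replicates 1, 3 and 4 was left out (adjusted p = 0.0521 to 0.115), with 1.92 as the lowest value, without day 1 replicate 2. It was lost as well in 6 of 11 other settings. The day 3 change passed without day 3 replicate 2 (2.53, adjusted p = 0.0430).

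Hpx (ENSMUSG00000030895.9) lies at chr7:105591613-105600137 on the minus strand and had 0 to 10 reads in a library. Its levels were 0 to 0.288 CPM at day 0, 0.108 to 0.804 at day 1 and 0.134 to 0.588 at day 3. The 3 days overlapped, and a difference was not detectable at this depth.

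Per kilobase of the main transcript, Fth1 was the highest of the 10 at day 0 (4810 ± 552, SD, n = 4), followed by Ftl1 (2150 ± 145) and, far lower, Mt1 (75.9 ± 11.4). Slc11a2 (39.2), Tfrc (35.2), Mt2 (26.3) and Hmox1 (24.9) followed, each overlapping the next in its range over libraries, and then Slc40a1 (15.5), Hp (1.73) and Hpx (0.120). At day 1 Mt2 (2340 ± 1030) and Mt1 (1980 ± 814) ranked just below Ftl1, with Mt2 overlapping both Ftl1 (3900 ± 275) and Mt1, and Hmox1 (448 ± 152) stood apart below them. At day 3 the first 4, Fth1 (6740), Ftl1 (2980), Mt1 (1030) and Mt2 (1030), each overlapped the next, and so did the latter and Hmox1 (93.4). Slc11a2 (33.9) came next, apart from Tfrc (21.0), which overlapped Slc40a1 below it.

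Libraries of 1 day differed among themselves. Day 3 replicate 2 was the lowest of its day for 7 of the 10 genes (Hmox1, Fth1, Ftl1, Tfrc, Mt1, Mt2 and Hp), and it also had the lowest neutrophil sum of the injured libraries (19.7 CPM) and the highest proximal tubule sum of day 3 (25100 CPM). Day 3 replicate 4 was the highest of its day for 5 (Fth1, Ftl1, Slc11a2, Mt1 and Mt2). At day 1, replicate 5 had the highest Mt1 and Mt2 and the lowest Fth1, Tfrc and Slc11a2. The part of the tubule and neutrophil levels in these values was not tested.

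Within a day, some of these genes differed between the number formats, in a share near that over all genes. At day 1, the 3-digit libraries had more Tfrc (178 and 262 CPM against 109, 99.4 and 89.4), more Fth1 (11083 and 9586 against 5271, 7987 and 4234) and more Slc40a1 (68.2 and 83.5 against 46.4, 42.2 and 49.2). The log2 difference, 3-digit minus 1-digit, was 1.15 ± 0.21 for Tfrc (adjusted p = 0.00164), 0.83 ± 0.29 for Fth1 (adjusted p = 0.0439) and 0.72 ± 0.22 for Slc40a1 (adjusted p = 0.0216), so 3 of 9 genes were called, all higher, where 35.0% of all genes were called (18.6% higher and 16.4% lower). At day 3, the 3-digit libraries had less Fth1 (5613, 3098 and 4378 against 10728 and 7487) and less Ftl1 (2760, 1772 and 1921 against 4334 and 3639), with log2 differences of -1.06 ± 0.29 (adjusted p = 0.0278) and -0.89 ± 0.20 (adjusted p = 0.0127), so 2 of 9 were called, both lower, where 18.5% of all genes were called (10.3% higher and 8.22% lower). The format difference itself changed between the days for Fth1 (-1.89 ± 0.42, adjusted p = 0.00854), Tfrc (-1.11 ± 0.30, adjusted p = 0.0221) and Ftl1 (-0.95 ± 0.28, adjusted p = 0.0346), 3 of 9, all lower, where 17.6% of all genes passed (9.1% higher and 8.45% lower). Slc34a1 moved with the format at day 1, at 817 and 402 CPM in the 3-digit libraries against 6401, 4343 and 4182 in the others, and the proximal tubule sum was 22900 and 36300 against 48200 to 61500 CPM. At day 1, 7 of 10 proximal tubule markers were lower and 3 of 7 urothelium markers higher in the 3-digit libraries, 4 of 7 tested liver markers were lower and 1 higher (389 and 1140 against 2610 to 3820 CPM), 2 of 7 collecting duct markers were higher and 1 lower, and 1 of 7 thick limb and distal tubule markers was higher and 2 lower. At day 3, 5 of 6 endothelium markers were lower in them (summed level 148 to 257 CPM against 366 and 582), 4 of 10 macrophage markers were higher and 1 lower (193 to 226 against 164 and 213), 3 of 10 proximal tubule and 3 of 7 thick limb and distal tubule markers were higher, and the fat markers summed to 44.0 to 110 against 196 and 241. Most of that fat sum was Fabp4, at 43.4 to 104 against 179 and 219 CPM. Adipoq and Cfd were at most 0.07 CPM in every day 3 library. What the format stands for is not known, and the part of these cell types in the differences was not tested.

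**Figure D4:**
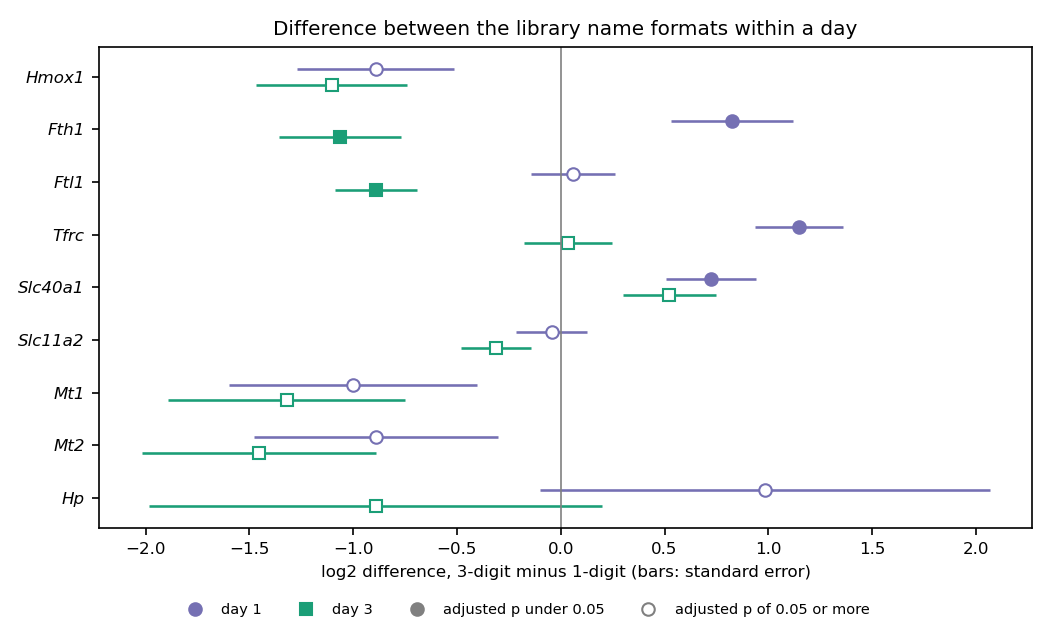
Log2 difference between 3-digit and 1-digit libraries (horizontal axis) of the 9 tested genes at day 1 (circles) and day 3 (squares), with bars of 1 standard error and filled symbols for an adjusted p under 0.05. Fth1 lies at 0.83 at day 1 and at -1.06 at day 3, and Tfrc lies at 1.15 and 0.03.

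Several of these calls were lost with 1 library left out, most of them at a similar difference. At day 1, the Fth1 call was lost without any one of the 4 day 0 libraries, which enter only the estimate of the spread (0.83), day 3 replicate 3 (0.82), or day 1 replicates 1, 2, 3 and 5 (0.64 to 0.93), with adjusted p = 0.0545 to 0.188. The Slc40a1 call was lost without day 1 replicate 2 (0.57, adjusted p = 0.179) or 4 (0.66, adjusted p = 0.0662). At day 3, the Fth1 call was lost without any one of replicates 2 to 5 (-1.32 to -0.78, adjusted p = 0.0725 to 0.130) and the Ftl1 call without replicate 5 (-1.03, adjusted p = 0.0630). Without day 3 replicate 1, the format difference of day 3 was -2.45 for Mt1 (adjusted p = 0.00194) and -2.42 for Mt2 (adjusted p = 0.00348), against -1.32 (adjusted p = 0.116) and -1.45 (adjusted p = 0.0857) with it. That of Hmox1 was -1.10 (adjusted p = 0.0506) with all libraries, -1.70 without day 3 replicate 4 and -0.09 without day 3 replicate 5. At day 1 the Hmox1 ranges of the formats did not overlap, and its difference of -0.89 (adjusted p = 0.0824) passed without day 3 replicate 4 (adjusted p = 0.0164) or 5 (adjusted p = 0.0162). For Slc40a1 at day 3, the difference was 0.52 (adjusted p = 0.114), and 1.11 without day 3 replicate 4 (adjusted p = 0.00435). The change of the format difference was lost for Tfrc without day 1 replicate 2 (-0.81) or day 3 replicate 4 (-1.09), and for Ftl1 without any of 10 libraries, that is, all but day 0 replicate 4, day 1 replicate 5 and day 3 replicates 1 and 5 (-1.04 to -0.82, adjusted p = 0.0508 to 0.120).

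Since day 0 has 1-digit libraries only, a comparison with day 0 within 1 format is possible for those alone, and the 3-digit libraries differ from day 0 in both day and format. The 1-digit libraries of day 1 differed from day 0 in 6 of the 9 genes (Hmox1, Ftl1, Mt1 and Mt2 higher, Tfrc and Slc11a2 lower), where 58.5% of all genes were called (28.9% higher and 29.6% lower). Tfrc had a log2 fold change of -0.79 ± 0.18 there (adjusted p = 0.00230), while the 3-digit libraries of day 1 stood at 0.36 ± 0.20 (adjusted p = 0.167). The 1-digit libraries of day 3 differed in 7 of 9, with Fth1 (1.03 ± 0.27, adjusted p = 0.00686), Ftl1 (0.94 ± 0.19, adjusted p = 0.00108), Hmox1, Mt1, Mt2 and Hp higher and Tfrc lower, where 53.7% of all genes were called (28.6% higher and 25.1% lower). The Fth1 call was lost there without day 3 replicate 4 (0.75, adjusted p = 0.0844), the Tfrc call without day 3 replicate 5 (-0.71, adjusted p = 0.0670), and the Hp call without any of day 0 replicates 1 to 3, day 1 replicates 3 to 5 or day 3 replicates 3 and 5 (adjusted p = 0.0519 to 0.403), at 1.48 without the latter and 2.33 to 2.73 otherwise. The 3-digit libraries of day 1 differed in 7 of 9, with Hmox1, Fth1, Ftl1, Mt1, Mt2 and Hp higher and Slc11a2 lower, where 41.6% of all genes were called (22.6% higher and 19.0% lower). The Slc11a2 call was lost there without day 1 replicate 1 (-0.58, adjusted p = 0.0828) or 2 (-0.65, adjusted p = 0.0518), and the Hp call without day 1 replicate 2 (1.44, adjusted p = 0.431) or any of day 0 replicates 1, 2 and 3 (adjusted p = 0.0647 to 0.0779). The 3-digit libraries of day 3 differed in 5 of 9, with Hmox1, Slc40a1, Mt1 and Mt2 higher and Tfrc lower, where 32.4% of all genes were called (19.1% higher and 13.3% lower). The Slc40a1 call, at 0.56 ± 0.18 (adjusted p = 0.0331), was lost there without any of the 4 day 0 libraries, day 1 replicate 1 or day 3 replicates 1 and 3 (0.46 to 0.58, adjusted p = 0.0533 to 0.137). In these 3-digit libraries Fth1 stood at -0.03 ± 0.25 (adjusted p = 0.936) against day 0 and Ftl1 at 0.05 ± 0.17 (adjusted p = 0.847). Hmox1, Mt1 and Mt2 rose in both formats on both days, with the smallest log2 fold change, 1.36 ± 0.31 for Hmox1, in the 3-digit libraries of day 3 (adjusted p = 0.00494).

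The genes with the most similar pattern were found by the root mean square difference of centred log2 CPM over the 14 libraries, where 0 is an identical pattern. For Hmox1 they were Pvr (0.464), Epha2 (0.518) and Trib3 (0.534). For Mt1 they were Pi15 (0.469), Pdk4 (0.476) and Map3k6 (0.571), and for Mt2 they were Prss22 (0.624), Socs3 (0.661) and Sprr2g (0.693). Socs3, a feedback inhibitor of cytokine signaling, stood at 1.74 CPM at day 0, 91.3 at day 1 and 35.3 at day 3. Ftl1 lay nearest to Rps25 (0.182), a ribosomal protein gene, and to the proteasome genes Psma3 (0.183) and Psma6 (0.187). The nearest genes were Ugdh (0.229), Gbe1 (0.241) and Gsr (0.259) for Fth1, Mettl7b (0.181), Alg3 (0.209) and Sqrdl (0.230) for Tfrc, 1700011H14Rik (0.175), Decr1 (0.197) and Cav2 (0.208) for Slc40a1, 2410131K14Rik (0.138), Dcaf8 (0.148) and Appl2 (0.154) for Slc11a2, and Galnt16 (0.784), Krt19 (0.863) and Ppm1j (0.901) for Hp. Within the 9 tested genes, the closest pair was Fth1 and Ftl1 (0.351), Mt1 and Mt2 stood at 0.774, and Tfrc and Mt2 were the furthest apart (3.01).

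The wider heme, iron and zinc pathway was followed in 5 lists of 74 genes found in the files, of which 67 were tested. At day 1, 16 rose and 16 fell (47.8%, against 42.1% of all genes), and at day 3, 17 rose and 15 fell (47.8%, against 33.3%). By list, the share called at days 1 and 3 was 50.0% and 50.0% in heme synthesis, 25.0% and 33.3% in heme breakdown and transport, 61.5% and 76.9% in iron uptake and reduction, 56.2% and 43.8% in iron storage, export and regulation, and 42.9% and 35.7% in zinc genes. Iron uptake and reduction held the largest changes. Lcn2, which carries iron bound to siderophores and is a marker of tubule injury, was 2.24 ± 0.696 CPM at day 0 (n = 4), 1688 ± 833 at day 1 and 1777 ± 1383 at day 3 (n = 5 each), log2 fold changes of 9.55 and 9.63. Of the 13 genes tested on this list, 4 rose and 4 fell at day 1, and 5 rose and 5 fell at day 3. The membrane iron-binding protein Mfi2 (4.02 and 5.58) and the metalloreductase Steap1 (2.74 and 2.26) rose on both days. The metal importer Slc39a8 (-2.30 and -2.27) and the endocytic receptors Lrp2 (-2.15 and -1.71) and Cubn (-1.60 and -1.30), which retrieve filtered proteins in the proximal tubule, fell on both days. Proximal tubule markers were lower with them at day 3, and their part in these changes was not tested. The day 3 value of Lrp2 was -2.44 without day 3 replicate 2, -3.67 with 1-digit names only and -1.13 with 3-digit names only (adjusted p = 0.0677), and that of Cubn was -1.69, -2.75 and -0.79 (adjusted p = 0.0606), respectively.

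In heme synthesis, 1 of 12 genes rose and 5 fell on each day. At day 1 the late enzymes Cpox (132 ± 15.3 to 66.3 ± 16.7 CPM, adjusted p = 0.0130) and Ppox (-0.80 ± 0.24) and the mitochondrial transporter Abcb10 (-0.64 ± 0.15) fell. At day 3 the enzyme Uros (-2.02 ± 0.55), the carrier Slc25a38 (-0.77 ± 0.20) and Abcb10 (-0.59 ± 0.15) fell. The call of Ppox was lost with 3-digit libraries only (-0.56, adjusted p = 0.0638), that of Slc25a38 with a format term (-0.54, adjusted p = 0.0518) and that of Abcb10 at day 3 without TMM scaling (-0.44, adjusted p = 0.0586). Tspo, an outer mitochondrial membrane protein, rose on both days (0.65 and 0.91). Its day 1 call was near the threshold (adjusted p = 0.0489) and was also lost without TMM scaling, under both other filters, with a format term and within the 1-digit libraries (adjusted p = 0.0554 to 0.0810), where the log2 fold change was 0.29. In heme breakdown and transport, 2 of 12 rose and 1 fell at day 1, and 3 rose and 1 fell at day 3. Biliverdin reductase Blvra, the enzyme that follows heme oxygenase, rose at day 1 (71.4 ± 8.46 to 133 ± 46.6 CPM, 0.90 ± 0.25, adjusted p = 0.0111), as did the heme transporter Slc48a1 (0.69 ± 0.22). The scavenger receptor Lrp1, which takes up the heme-hemopexin complex, rose at day 3 (1.44 ± 0.32), and the folate and heme carrier Slc46a1 fell on both days (-0.88 and -1.09).

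In iron storage, export and regulation, 4 of 16 rose and 5 fell at day 1, and 4 rose and 3 fell at day 3. Bmp6, a growth factor known to raise hepcidin, rose on both days (1.26 and 0.95), and so did Id1 (1.44 and 2.38), a common target of that signal, while Smad7 rose at day 1 (0.74 ± 0.16) and Hfe at day 3 (1.53 ± 0.42). Hepcidin itself, as Hamp and Hamp2, was listed at 0 in every library. Ncoa4, the receptor that delivers ferritin for breakdown, fell at day 1 (114 ± 5.44 to 53.9 ± 8.95 CPM, -1.09 ± 0.18) and stood at 112 ± 28.3 CPM at day 3. The ferroxidase Heph (-0.88 ± 0.18) and the iron regulatory protein Aco1 (-0.60 ± 0.15) fell at day 1. Heph rose at day 3 (0.61, adjusted p = 0.0190), which is named here after its values were seen, from 15.9 CPM at day 0 and 8.67 at day 1 to 24.3, and this call was lost without day 0 replicates 1, 2 or 3 or day 3 replicate 1 (0.52 to 0.61, adjusted p = 0.0505 to 0.0602). The iron chaperone Pcbp1 (-0.76 ± 0.16), the iron-sulfur scaffold Iscu (-0.57 ± 0.13) and Fbxl5 (-0.55 ± 0.13), which removes an iron regulatory protein, fell at day 3. Iscu was also called lower at day 1 (189 CPM at day 0, 144 at day 1). That call was lost without day 0 replicates 1, 3 or 4 or day 1 replicate 5 (adjusted p = 0.0561 to 0.0818). It was also lost without both libraries with fat markers (-0.37) and with the 1-digit libraries only (-0.30). Among zinc genes, 5 of 14 rose and 1 fell at day 1, and 4 rose and 1 fell at day 3. The zinc importers Slc39a1 (1.41 and 1.20) and Slc39a6 (1.34 and 1.04) rose on both days, the zinc transporters Slc30a4 at day 1 (0.69 ± 0.24) and Slc30a7 at day 3 (0.61 ± 0.12), and Slc30a5 fell at day 1 (-0.47 ± 0.13). Slc30a5 was also called lower at day 3 (113 CPM at day 0, 87.3 at day 3). That call was lost without TMM scaling (-0.23, adjusted p = 0.221) or day 0 replicates 1, 2 or 3 (-0.37 to -0.33), among other fits. Without both libraries with fat markers, the calls of Tspo (0.47, adjusted p = 0.184), Blvra (0.69, 0.0648), Slc48a1 (0.56, 0.0802) and Slc46a1 (-0.84, 0.0625) at day 1 and of Lrp2 (-1.68, 0.0736) and Cubn (-1.37, 0.0622) at day 3 were lost, the last 3 at log2 fold changes close to those with all libraries. Leaving out 1 library ended the day 1 calls of Slc48a1 (day 0 replicates 1 and 2, day 1 replicate 1), Slc30a4 (any day 0 library, day 1 replicates 4 and 5) and Tspo (any day 0 library, day 1 replicates 1, 2 and 5, day 3 replicates 1 and 3). It likewise ended the day 3 calls of Lrp2 (any day 0 library, day 3 replicates 1, 4 and 5) and Cubn (any day 0 library, day 3 replicates 1 and 4), with adjusted p of 0.0527 to 0.124 over all of these. Over these fits with 1 library removed, log2 fold changes ran over 0.55 to 0.80 for Slc48a1, 0.54 to 0.79 for Slc30a4 (0.34 with 3-digit libraries only, adjusted p = 0.166), 0.50 to 0.75 for Tspo, -2.44 to -1.45 for Lrp2 and -1.69 to -1.04 for Cubn.

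**Figure D5:**
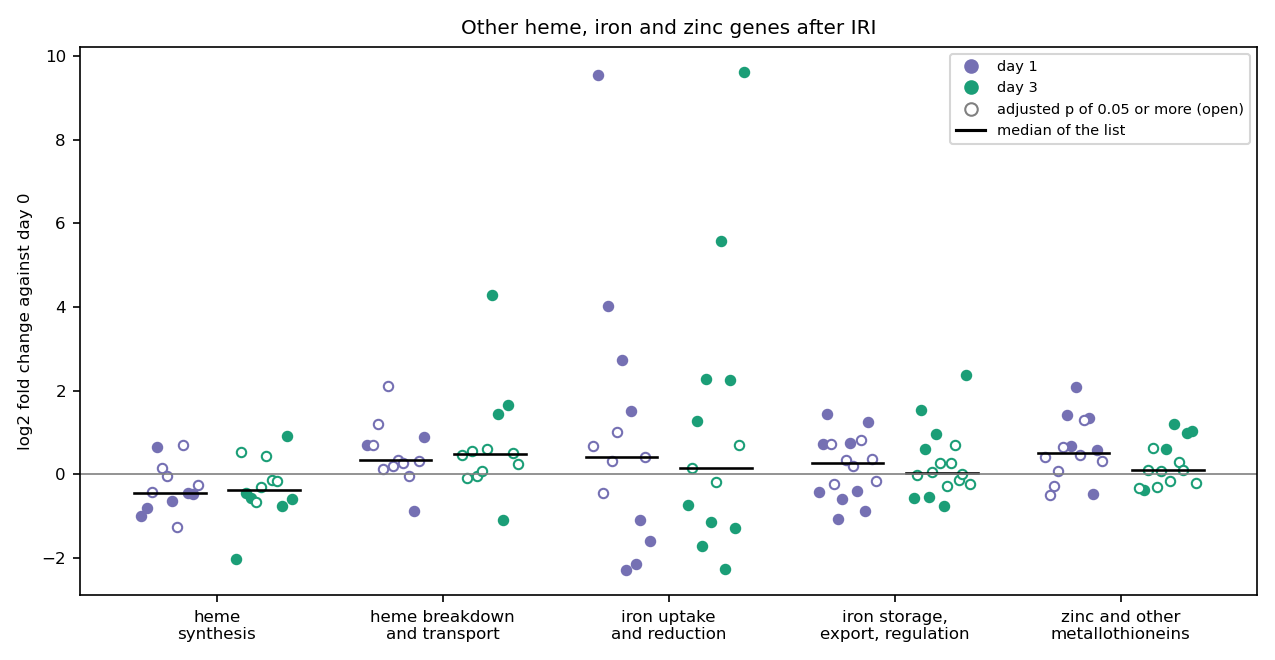
Log2 fold change against day 0 (vertical axis) of the 67 tested genes of the 5 pathway lists at day 1 and day 3, with filled points for an adjusted p under 0.05 and a line at the median of each list. Most genes lie within a few log2 units of 0, Lcn2 stands apart at 9.55 and 9.63, and the heme synthesis genes lie mostly below 0 on both days.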

How the data were processed

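Bulk RNA-seq libraries were made from mouse kidney (TRIzol extraction, Illumina TruSeq kit). Per the labels, the authors used Trimmomatic, STAR and the mm10 build, and they deposited raw gene counts for each library, unstranded and for each strand. Versions and the gene annotation are not given in the sources used here. The counts of the strand column that held 98.5% to 98.8% of reads were used, and 29.0% to 38.3% of reads named no gene and were left out. Genes were filtered with filterByExpr and tested with edgeR 4.0.16 (TMM, quasi-likelihood test, Benjamini-Hochberg over 14300 genes, threshold 0.05) in R 4.3.3 on all 14 libraries, with 1 term per day, or 1 per day and number format. The sources used here name t tests or ANOVA for group differences in general, and no test made for counts. Scripts were tested on simulated data. Replicate pairs differed by more than counting noise. The genes and lists were chosen with earlier results of these data known. Of each list, up to 3 higher and 3 lower genes were named on each day, taking the largest changes among called genes with a mean of 1 CPM or more and no overlap with day 0. Flvcr1, Flvcr2 and Tf were not analysed here. Lengths are those of the first GENCODE M21 transcript. Fat markers, an added choice, were examined after seeing the data. Alternatives were other scalings, filters, DESeq2 1.42.0, the unstranded column, a replicate block, a format term and leaving out each library.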

Additional observations from a re-analysis of the deposited data

Results flagged for a closer look

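The 4 or 5 libraries of each day were examined, gene by gene, for a library far from the others, in 30 groups in all, of which 5 held one. Chance would give about 1.5 if the groups were independent. The genes share the same libraries, so the groups are not independent and the 2 numbers cannot be weighed against each other. Hmox1 in day 0 replicate 4 stood at 52.0 CPM, against 33.8 to 36.0 in the other 3. Hmox1 in day 3 replicate 5 stood at 326 CPM, against 77.8 to 118 in the other 4. Hp in day 0 replicate 4 stood at 7.92 CPM, against 0.118 to 0.690. Hp in day 1 replicate 2 stood at 31.9 CPM, against 6.30 to 13.2. Hpx in day 3 replicate 5 stood at 0.588 CPM, against 0.134 to 0.254, which is 8 reads in that library.

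The difference between 3-digit and 1-digit libraries was not the same on the 2 injured days for 3 genes, by the test of that change itself (edgeR quasi-likelihood, adjusted over all genes). It moved from day 1 to day 3 by -1.89 on the log2 scale for Fth1, by -0.95 for Ftl1 and by -1.11 for Tfrc. The cause was not tested.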

How the results depend on the processing

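The number of the 9 genes called stayed within 1.5 times its value under every alternative run for day 1 against day 0 (5 to 7) and for the 1-digit libraries of day 1 (5 to 7) and of day 3 (5 to 7) against day 0. Over these alternatives the share of all genes called ran from 31.0% to 61.3%, 44.3% to 61.0% and 28.6% to 56.4%, respectively. For day 3 against day 0 the number called was 4, and 7 with the 1-digit libraries only, where the share of all genes called went from 33.3% to 56.3%. For day 3 against day 1 it was 1, and it was 2 without TMM scaling, 2 with the replicate block, 2 with a format term, 3 with the 1-digit libraries only, 4 with the 3-digit libraries only, and 1 to 2 with each library left out (2 without day 3 replicate 3). The share of all genes called was 15.9%, and it was 15.4% without TMM scaling, 14.3% with the block and 19.7% with a format term. It was 36.0% with the 1-digit libraries, 16.0% with the 3-digit ones and 9.8% without day 3 replicate 3. For the formats of day 1 it was 3, 1 with the replicate block, and 1 to 4 with each library left out (1 without day 1 replicate 2), where the share of all genes went from 35.0% to 17.5% with the block, and to 1997 of 14226 genes without that replicate. For the formats of day 3 it was 2, 0 with the replicate block, and 0 to 5 with each library left out (0 without day 3 replicate 5, 5 without day 3 replicate 1), where of all genes 2645 were called, and 0, 91 and 4771, respectively. At an unadjusted p under 0.05, edgeR gave 6 genes with all libraries and 3 with the block, where 5102 and 2137 of all 14300 genes passed, respectively. At an adjusted p under 0.05, DESeq2 called 3 with all libraries, where it called 24.6% of all genes. For the change of the format difference it was 3, where 17.6% of all genes passed. With 1 library left out, it was lowest without day 1 replicate 2 or day 3 replicate 4, which each leave 1 library in a group. The share of all genes was lower there too. Slc40a1 in the 1-digit libraries of day 3 reversed from 0.03 to -0.55 without day 3 replicate 4 (adjusted p = 0.0235) and reached 0.47 without day 3 replicate 5. Where a library left out leaves 1 in a group, that library is assumed to vary like the others. The cause of these shifts was not tested. Over all members and named genes, 3372 values kept direction and call, 157 lost the call, 95 gained it and 1 reversed.

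The replicate numbers were not treated as pairs, since the deviations of same-numbered libraries correlated at -0.175 to 0.261. With the replicate block, 5 genes were called at day 1, where 36.1% of all genes were, and 3 at day 3, where 28.7% were. The calls of Hp at day 1, Tfrc at day 3 (-0.61, adjusted p = 0.0964), Slc11a2 in the 1-digit libraries of day 1 (-0.27, 0.133), Tfrc (-0.45, 0.207) and Hp (1.21, 0.486) in those of day 3 and Slc40a1 in the 3-digit libraries of day 3 (0.58, 0.0555) were lost with it, as were the Ftl1 change of format difference (-0.94, 0.0995), Tspo and Iscu at day 1, and the format calls of Fth1 and Slc40a1 at day 1 and of Fth1 and Ftl1 at day 3. Calls were gained for Mt2 from day 1 to day 3 (-1.40, 0.0446) and for Slc11a2 (-0.43, 0.0221) and Hp (3.27, 0.0398) in the 3-digit libraries of day 3. Pathway counts, 32 of 67 genes on each day, were 26 to 37 at day 1 and 23 to 36 at day 3 with each library left out, and 26 to 43 and 28 to 42 under the other settings, most of them chosen after seeing the data. Over all these settings, 31.0% to 61.3% of all genes were called at day 1 and 23.0% to 56.3% at day 3. The mean levels of the 10 genes were recomputed only without TMM scaling and from the unstranded column, where none moved by more than its SD. Genes with few reads, as Hpx, were limited by depth.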
